A study of Mus musculus with 6 samples.

Results

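DNA replication machinery is described here through 46 mouse genes, chosen by name, that load, fire and run the replication fork. Their members were found as probe sets whose only gene symbol in the array's annotation is one of the 46, which gave 97 of the 45037 probe sets on the array. The 46 genes were grouped by role into licensing (11 genes), helicase (14), polymerases (9), clamp loading (6) and lagging strand (6), out of 18193 genes with a probe set of their own. The cells were primary dermal fibroblasts from the dermis of B6 mice of both sexes aged 0 to 2 days, grown from explants and used at passage 4. Treated cultures (3) received 5-aza-2'-deoxycytidine at 5 µM in growth medium, renewed daily through 96 hours, and were then left in medium without drug for 24 hours, while control cultures (3) were untreated. Both groups were grown in the same medium with 10% serum, and the explants were made separately for each replicate. The labels do not state how many animals went into an explant or whether controls received the solvent of the drug. The comparison asks how transcripts of the replication machinery differed between treated and untreated cultures.

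Replication begins when the origin recognition complex, Cdc6 and Cdt1 load the Mcm2 to Mcm7 ring onto DNA, a step called licensing that geminin (Gmnn) blocks once S phase has begun. The kinase Cdc7 with its activator Dbf4 then fires the origin, and Cdc45 and the GINS complex turn the ring into the active helicase. DNA polymerase alpha with primase starts each strand, the clamp loader RFC places the sliding clamp Pcna, and the polymerases delta and epsilon extend the strands while RPA covers single-stranded DNA. On the lagging strand, Fen1 and RNase H2 remove primers and Lig1 seals the nicks. Many of these genes are transcribed at the entry to S phase under E2F transcription factors, which bind promoter sites related to TTTGGCG. 5-aza-2'-deoxycytidine (decitabine) is built into DNA during replication and traps DNA methyltransferases there.

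The promoters of 6 of these genes are shown because each holds an E2F-type match and because the genes differed in what their transcripts did; these stretches were chosen after the matches were seen. Each stretch of 60 bases lies before the annotated gene start, is taken from RefSeq promoters on GRCm38.p6, and reads 5′ to 3′ on the strand of the gene. Capitals mark matches on either strand to the letters TTTGGCG, to its variant TTTCCCG, or to the mixed form TTTCGCG, and in Mcm5 and Mcm6 a pair of matches on opposite strands overlaps.
Mcm5 promoter (chr8:75109332-75109391, plus strand, bases 177 to 118 before the start): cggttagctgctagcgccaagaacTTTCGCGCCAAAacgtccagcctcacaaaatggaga
Mcm6 promoter (chr1:128359780-128359839, minus strand, bases 134 to 75 before the start): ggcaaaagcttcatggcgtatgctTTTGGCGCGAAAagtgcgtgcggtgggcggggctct
Rfc3 promoter (chr5:151651209-151651268, minus strand, bases 60 to 1 before the start): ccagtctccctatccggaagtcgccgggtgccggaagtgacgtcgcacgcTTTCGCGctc
Cdc6 promoter (chr11:98907990-98908049, plus strand, bases 161 to 102 before the start): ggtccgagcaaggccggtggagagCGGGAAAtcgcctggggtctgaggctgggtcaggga
Fen1 promoter (chr19:10204394-10204453, minus strand, bases 60 to 1 before the start): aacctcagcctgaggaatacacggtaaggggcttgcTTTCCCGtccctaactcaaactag
Rpa1 promoter (chr11:75348564-75348623, minus strand, bases 240 to 181 before the start): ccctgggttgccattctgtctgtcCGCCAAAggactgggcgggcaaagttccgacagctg
Of these genes, Mcm5, Mcm6 and Rfc3 were called lower in treated cultures, Rpa1 was called higher, and Cdc6 and Fen1 were not called.

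RefSeq promoter windows of 250 bases before the start were matched for 37 of the 46 genes. At least 1 E2F-type match was found in 12 of these 37 (32.4%), against 1424 of 27025 genes with a window (5.27%). Windows of replication genes were also richer in CpG, with a median of 18 CpG sites against 6 over all genes, and among windows with at least 10 CpG the shares were 12 of 33 (36.4%) against 1083 of 10871 (9.96%). The match was present in 5 of 14 genes called lower and in 7 of 22 tested genes that were not called lower. The CCAAT box, the site of NF-Y, was present in 22 of 37 windows (59.5%) against 37.5% of all genes, and in 8 of 14 called lower and 14 of 22 not called lower. A match is a run of letters, and binding was not measured.

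Values are MAS5 signals brought to a common trimmed mean of 193 units per array, and a log2 change is treated minus control on the scale log2(signal + 9.66), which understates changes of dim probe sets. Tested were the probe sets brighter than their array's median on 3 or more of the 6 arrays. Calls are adjusted p-values under 0.05 from limma with Benjamini-Hochberg adjustment over all 23388 tested probe sets. A gene is represented by its brightest tested probe set, and errors after ± are SD over n = 3 for signals and SE for log2 changes. Signals of different genes come from different probes and are not compared with each other. Correlations of log2 signals were 0.967 to 0.970 within groups and 0.925 to 0.935 between groups. Of 11 listed fibroblast markers, 9 fell. All exceeded the array median on all 6 arrays except Fap, which did so on 5. Lum and Pdgfra fell farthest, to 0.07 and 0.11 of control. The summed signal of the 11 was 25795 to 31650.0 in treated against 55042 to 62962 in control cultures. Vim, which was not called, averaged 11246 of it in treated and 10235 in control cultures. Of 9 keratinocyte markers, 6 stayed below the array median on all arrays and 1 was called higher, the junction gene Dsp, which entered the test only through the treated arrays (319, 386 and 124 in treated and 16.7, 37.5 and 23.4 in control cultures). Their summed signal was 428 to 635 in treated against 223 to 332 in control cultures. The dimmest, Krt1, Krt15 and Col17a1, averaged 4.31, 9.0 and 2.91 units in treated and 9.38, 6.58 and 1.58 units in control cultures. Krt10 was above the array median on all 6 arrays, averaging 70.3 in treated and 70.9 in control cultures. Krt5 was above it on 5 of 6, averaging 90.1 in treated and 71.8 in control cultures. Neither Krt10 nor Krt5 was called. Of 9 leukocyte markers 5 were tested and 1 rose, with sums of 901 to 1175 in treated against 793 to 883 in control cultures. Of 6 skeletal muscle markers 2 were tested and 1 rose (Des, 0.99, adjusted p = 0.00135), with sums of 352 to 429 in treated against 283 to 329 in control cultures. Of 6 endothelial markers 4 were tested, and 1 was called lower (Tek) and 1 higher (Cdh5), each tested only through the arrays of the group where it is high, with sums of 278 to 381 in treated against 299 to 346 in control cultures. All 6 melanocyte markers were tested and 1 fell (Pmel, -1.22, adjusted p = 0.0356), with sums of 496 to 651 in treated against 519.7 to 676 in control cultures. The 3' to 5' ratio of the Actb control probe sets, a measure of RNA integrity, was 1.14 to 1.18 in treated and 1.26 to 1.28 in control cultures, and that of Gapdh was 0.747 to 0.792 in treated and 0.721 to 0.751 in control cultures, the opposite order with overlap. The part of these differences in the results that follow was not tested. In whole cultures, fewer cells in S phase and less transcript per cell cannot be told apart.

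Of the 46 replication genes, 44 were tested, and 17 were called lower and 2 higher in treated cultures. Over all 12194 genes tested, 41.1% were called, 21.6% lower and 19.5% higher, so the share of replication genes called lower (38.6%) lay above this background and the share called higher (4.55%) below it. The changes were small: the median log2 change was -0.17 over the 44 genes against 0.00 over all genes, and Pole2 was the only member called lower by at least 2-fold, a step reached by 6.05% of all genes. In 17 of the 44 genes all treated arrays lay below all control arrays (27.4% of all genes), and in 6 all lay above (25.1%): Orc2 and Rpa1, which were called, and Orc4, Cdt1, Pola2 and Rnaseh2a, which were not. The 25 genes that were not called ran from -0.66 to 0.41. The filter on dim signals took out Timeless and Pole, and no tested member passed it through the arrays of 1 group alone. The roles differed in how many members were called lower, from 5 of 6 in clamp loading and 5 of 8 in polymerases to 4 of 13 in the helicase, 2 of 11 in licensing and 1 of 6 on the lagging strand. Between roles the difference was not tested. Without control array 1, 10 genes were called lower in place of 17, and with the deposited signals left unscaled 7 were. Fewer probe sets of the whole array were called lower in these settings too, with counts in the closing section. The shares of 38.6% and 21.6% hold for the main fit, and the share over all genes was not computed in the other settings.

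**Figure D1:**
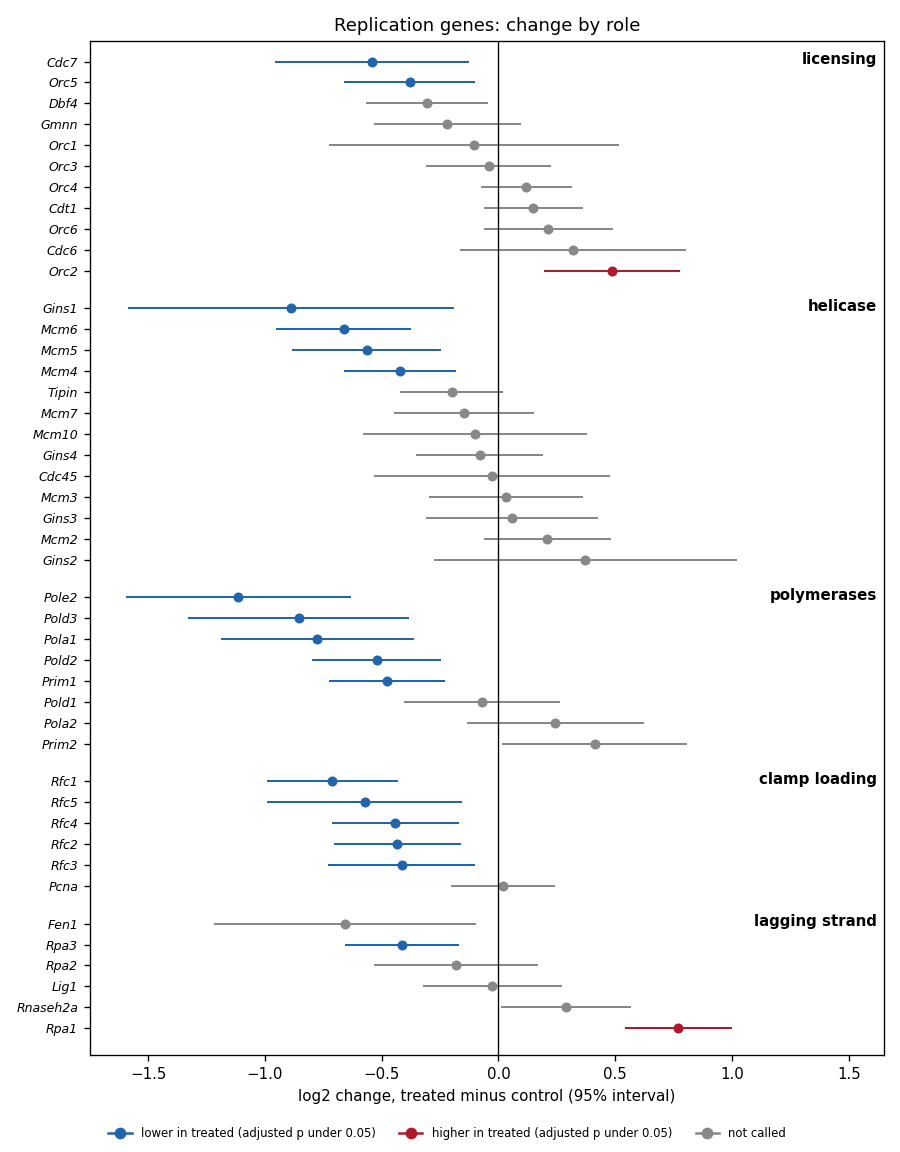
Log2 change of the 44 tested replication genes by role, treated minus control on the x axis, with points for the representing probe set and bars for the 95% interval of the limma fit (n = 3 arrays per group). Blue marks the 17 genes called lower and red the 2 called higher, Orc2 and Rpa1; all 5 Rfc genes lie left of 0 and Pcna lies at 0.02.

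Licensing genes showed little common movement: 2 of 11 were called lower, 1 higher and 8 were not called, with a median log2 change of -0.04. The shares were 18.2% lower and 9.09% higher, against 21.6% and 19.5% of all genes. Orc2, a subunit of the origin recognition complex, rose. Its signal was 329, 379 and 359.6 in treated cultures, against 253, 289.8 and 215 in control cultures. The groups did not overlap, and the log2 change was 0.49 ± 0.13 (adjusted p = 0.0138). All 3 probe sets of Orc2 were called higher, the others with changes of 0.64 and 0.63. Orc5, another subunit of the same complex, fell. It gave 188, 172 and 191 in treated and 248, 265 and 215 in control cultures, a log2 change of -0.38 ± 0.12 (adjusted p = 0.0346). The other subunits were not called: Orc1 (-0.10), Orc3 (-0.04), Orc4 (0.12) and Orc6 (0.21). Subunits of 1 complex were thus called in both directions.

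The loading factors Cdc6 and Cdt1 did not pass the test. Cdc6 gave 96.6, 94.9 and 91.3 in treated and 93.2, 78.0 and 54.5 in control cultures, where control array 3 was the dimmest. Cdt1 gave 417, 399 and 380.3 in treated and 369, 361 and 345 in control cultures, and its 95% interval ran from -0.06 to 0.36 on the log2 scale. These groups did not overlap for Cdt1, but its log2 change of 0.15 ± 0.09 did not pass (adjusted p = 0.243). Geminin, the inhibitor of Cdt1, changed by -0.22 ± 0.14 without passing. The origin-firing kinase Cdc7 was called lower at 75.6, 62.4 and 59.1 in treated against 100.1, 104 and 95 in control cultures (-0.54 ± 0.18, adjusted p = 0.0412), and its second probe set changed by -0.01 (adjusted p = 0.971). Dbf4, which activates Cdc7, gave 288, 295 and 329 in treated and 429, 356 and 351 in control cultures, all treated arrays lower, with adjusted p = 0.0613. The call of Orc2 was lost without treated array 2 (adjusted p = 0.0506). Those of Orc5 and Cdc7 each held in 1 of 6 fits that left out an array, with adjusted p up to 0.109 and 0.112: Orc5 kept it without control array 3 and Cdc7 without treated array 1.

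At their brightest probe sets, the 6 ring subunits of the helicase did not move as a block: 3 were called lower, none higher, and the median log2 change was -0.28. Of all genes, 21.6% were called lower and 19.5% higher. Mcm6 had the largest fall of these. Its signal was 375, 289 and 296 in treated and 562, 508 and 462 in control cultures, -0.66 ± 0.13 on the log2 scale (adjusted p = 0.00258). Every treated array was below every control array, and the other tested probe set of Mcm6 changed by -0.61 and was called too. Mcm5 gave 259.5, 236 and 230.1 in treated and 429, 372 and 297 in control cultures (-0.57 ± 0.14, adjusted p = 0.0105). Mcm4 gave 577, 561 and 621 in treated and 834, 684 and 856 in control cultures (-0.42 ± 0.10, adjusted p = 0.0107). For Mcm4, Mcm5 and Mcm6 the groups did not overlap, and the calls held when any 1 array was left out. The other tested probe sets of Mcm4 and Mcm5 were not called: that of Mcm4 changed by -0.15 ± 0.11 (adjusted p = 0.313) and that of Mcm5 by -0.60 ± 0.22 (adjusted p = 0.0576), and in both the groups overlapped. Mcm2 (0.21), Mcm3 (0.03) and Mcm7 (-0.15) were not called at their brightest probe sets.

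Those last 3 genes gave different answers at different probe sets. Mcm2 gave 354, 309 and 341 in treated and 260.1, 329 and 278 in control cultures at its brightest probe set, against 183, 161 and 154 in treated and 256, 250.3 and 199 in control cultures at the other. The second reading was lower on every treated array, with a log2 change of -0.47 ± 0.14 (adjusted p = 0.0233). For Mcm3, 1 of 5 probe sets was called lower (-0.69 ± 0.20, adjusted p = 0.0236) and the others ran from -0.85 to 0.08. For Mcm7, 1 of 4 was called lower (-0.52 ± 0.17, adjusted p = 0.0339) and the others ran from -0.15 to 0.06. The brightest probe sets of Mcm2, Mcm3, Mcm4, Mcm5 and Mcm7, and of Gins2 and Fen1 among the other members, carry suffixes that the manufacturer gives to probes that several transcripts can share. The dimmer tested probe set of Mcm6 carries one too. The tested probe sets of Mcm2 to Mcm7 without such a suffix all changed below 0, from -0.85 (Mcm3) to -0.15 (Mcm4), and not all were called. For Mcm2, Mcm3 and Mcm7, the readings from -0.15 to 0.21 all came from probe sets with such a suffix.

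Of the factors that turn the ring into a working helicase, 1 was called. Among the 4 GINS genes this is 25% lower, near the share of all genes (21.6% lower, with 19.5% higher). Gins1, a GINS subunit, gave 37.6, 39.7 and 93.3 in treated and 89.1, 125 and 105 in control cultures. Treated arrays 1 and 2 were low and treated array 3 lay within the controls, so the groups overlapped although the gene was called (-0.89 ± 0.31, adjusted p = 0.0464). That call held in 1 of 6 fits that left out an array, the one without treated array 3, and adjusted p reached 0.138. Gins2 (0.37), Gins3 (0.06) and Gins4 (-0.08) were not called, nor was Cdc45 (-0.03 ± 0.22), which joins GINS and the ring in the helicase. Mcm10, needed to start the fork, changed by -0.10 ± 0.21 without passing. Tipin, of the fork protection complex, gave 528, 545 and 496 in treated and 643, 623 and 544 in control cultures (-0.20 ± 0.10, adjusted p = 0.133). Its partner Timeless was not tested, since it exceeded the array median on 2 of 6 arrays. The brighter Timeless probe set gave 36.9, 62.8 and 39.2 in treated and 70.4, 56.3 and 44.6 in control cultures, and the dimmer one 4.79, 7.99 and 7.29 in treated and 78.2, 31.0 and 34.5 in control cultures. On the dimmer one all treated arrays were lower, and no test was made.

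Of the polymerase genes, 5 of 8 tested were called lower and none higher, and their median change of -0.50 was the lowest of the 5 roles. The share lower was 62.5%, against 21.6% of all genes, of which 19.5% were higher. Pole2, the second subunit of polymerase epsilon, had the lowest change of all 44. Its signal was 52.8, 73.2 and 96.2 in treated and 194, 162 and 149 in control cultures, a log2 change of -1.11 ± 0.21 (adjusted p = 0.00263). Even the highest treated array was below the lowest control. Pole, the catalytic subunit, was not tested: it was dim, at 49.5, 17.2 and 9.32 in treated and 70.8, 15.2 and 7.63 in control cultures, and read highest on array 1 of both groups. In polymerase delta, the accessory subunit Pold3 gave 116, 105 and 74.2 in treated and 208, 209 and 139.9 in control cultures (-0.86 ± 0.21, adjusted p = 0.00962). Pold2, its small subunit, gave 139, 151 and 148 in treated and 229, 212 and 200.4 in control cultures (-0.52 ± 0.12, adjusted p = 0.00742). The groups were apart for both genes. The catalytic subunit Pold1 was not called at its brightest probe set (-0.07 ± 0.15) and was called lower at a dimmer one (-0.52, adjusted p = 0.0276). The dimmer one carries a suffix for probes that several transcripts can share.

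In the primer-making complex, both catalytic subunits fell, and the regulatory ones did not pass at their brightest probe sets. Pola1, the catalytic subunit of polymerase alpha, gave 70.1, 67.9 and 73.3 in treated and 156, 108 and 122 in control cultures (-0.78 ± 0.18, adjusted p = 0.00786). Prim1, the catalytic primase subunit, gave 237, 242 and 265 in treated and 376, 350.2 and 320.0 in control cultures (-0.48 ± 0.11, adjusted p = 0.00663). Treated arrays were below controls for both, and the second probe set of Prim1 was called lower as well (-0.53). Pola2, the regulatory subunit, changed by 0.24 ± 0.17 (adjusted p = 0.288). The primase regulatory subunit Prim2 gave opposite readings. At its brightest probe set it read 235, 298 and 204 in treated and 149, 215 and 182 in control cultures, 0.41 ± 0.17 on the log2 scale (adjusted p = 0.0909). At another it read 130.0, 133 and 171 in treated and 287, 285 and 309 in control cultures, -0.98 ± 0.13 (adjusted p = 0.000364). No array was out of order at the second, where every treated value was below every control value. The readings are close in mean brightness, and the second was the brighter one in control cultures only. Leaving out treated array 1, 2 or 3 therefore made the second one represent the gene, which was then called lower (-0.92, -0.93 and -1.10). That choice of probe set follows the group difference, so these calls are no separate support. The level of Prim2 thus has no settled direction here.

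In the main fit, all 5 subunits of the clamp loader RFC were called lower, and the clamp itself was not. Of all genes, 21.6% were called lower and 19.5% higher. Only the call of Rfc1 held in all 16 alternative settings. RFC is a ring of 5 different subunits that opens Pcna and closes it around DNA. Rfc1, the large subunit found only in this loader, gave 173, 167 and 167 in treated and 324, 257 and 271 in control cultures (-0.71 ± 0.12, adjusted p = 0.00148). All 3 of its probe sets were called lower, with changes from -0.84 to -0.66. Rfc2 gave 352, 297 and 312 in treated and 494, 430.2 and 387 in control cultures (-0.43 ± 0.12, adjusted p = 0.017). Rfc3 gave 148, 146 and 141 in treated and 221, 205 and 167 in control cultures (-0.41 ± 0.14, adjusted p = 0.039). Rfc2 to Rfc5 are the small subunits, shared with other clamp loaders. Rfc4 gave 151, 166 and 168 in treated and 235, 208 and 226 in control cultures (-0.44 ± 0.12, adjusted p = 0.0156). Rfc5 gave 131, 94.5 and 116 in treated and 199, 190.2 and 136 in control cultures (-0.57 ± 0.18, adjusted p = 0.0336). For each of the 5 the treated arrays were all below the controls, as in 27.4% of all genes, and the levels were 0.61 to 0.75 of control on this scale.

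Pcna, the sliding clamp that holds the polymerase on DNA, read 2090.4, 2092 and 1891 in treated and 2079, 2179 and 1752 in control cultures. The groups overlapped, the log2 change was 0.02 ± 0.10 (adjusted p = 0.895), and its 95% interval ran from -0.20 to 0.24. That interval lies above the point estimates of all 5 Rfc genes. It overlaps the 95% intervals of Rfc2, Rfc3, Rfc4 and Rfc5, whose upper ends were -0.17, -0.10, -0.17 and -0.16. Only the interval of Rfc1, with its upper end at -0.43, lay apart. The difference between the genes was not tested. The call of Rfc1 held when any 1 array was left out. Without control array 1, the others lost theirs, Rfc2 also without treated array 2 (adjusted p up to 0.0633) and Rfc4 also without treated array 1 (up to 0.054). Rfc5 kept its call without treated array 1 or control array 3 (otherwise up to 0.114), and Rfc3 only without control array 3 (otherwise up to 0.132).

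**Figure D2:**
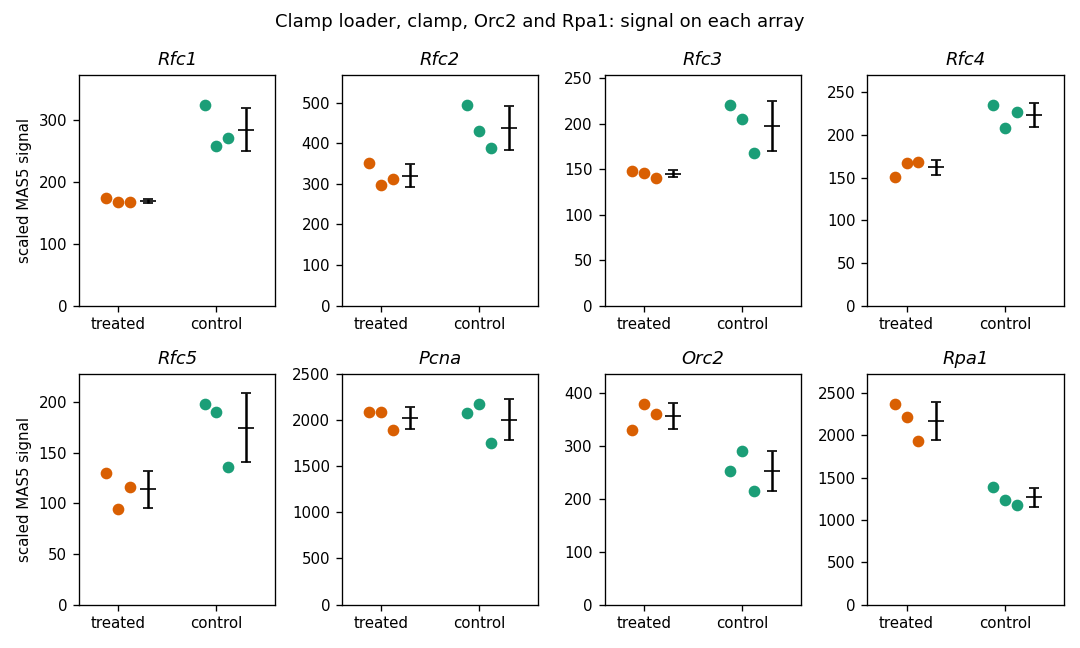
Scaled MAS5 signal (y axis, linear, from 0) of the clamp loader genes, the clamp gene Pcna, Orc2 and Rpa1 in treated and control cultures. Points are the 3 arrays of a group in the order of replicate number and black bars are mean ± SD; the treated points of Rfc1 to Rfc5 lie below their controls, those of Orc2 and Rpa1 above, and those of Pcna overlap.

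Of the lagging-strand genes, 1 of 6 was called lower and 1 higher, shares of 16.7% each against 21.6% and 19.5% of all genes. Rpa1, the large DNA-binding subunit of RPA, had the largest rise of the 44. Its signal was 2373, 2211 and 1928 in treated and 1389.6, 1239.8 and 1172 in control cultures, a log2 change of 0.77 ± 0.10 (adjusted p = 0.000271). No treated array reached down to the controls, and the second probe set rose too (0.51, adjusted p = 0.0114). Rpa3, the smallest subunit of the same trimer, fell: it gave 389.8, 381 and 361 in treated and 569, 455 and 498 in control cultures (-0.41 ± 0.11, adjusted p = 0.0122). Rpa2 was not called at either probe set (-0.18 and 0.38). Subunits of RPA were therefore called in opposite directions. The difference between Rpa1 and Rpa3 itself was not tested, but both calls held when any 1 array was left out.

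The flap endonuclease Fen1, which trims primers, was not called, and its probe sets disagreed. At the brighter one it read 259, 439 and 369 in treated and 593, 379.7 and 752 in control cultures, -0.66 ± 0.25 (adjusted p = 0.0629). At the dimmer one it read 166, 210.0 and 127 in treated and 129, 109.7 and 91.1 in control cultures, 0.55 ± 0.20 (adjusted p = 0.0554). Control readings at the brighter probe set spread widely, and control array 2 lay within the treated range. Fen1 was called lower without control array 2 (-0.92, adjusted p = 0.00964), without treated array 2 (-0.82, adjusted p = 0.0372) and with unscaled signals (-0.73, adjusted p = 0.0229). Lig1, the ligase that joins the fragments, gave 186, 178 and 185 in treated and 182, 215 and 166 in control cultures, a change of -0.03 ± 0.13 with a 95% interval from -0.32 to 0.27. Rnaseh2a, the catalytic subunit of RNase H2, gave 351, 339 and 315 in treated and 294, 295 and 232 in control cultures. All its treated arrays were above controls, with a log2 change of 0.29 ± 0.12 that did not pass (adjusted p = 0.0906). After quantile normalization of the arrays Rnaseh2a was called higher (0.35, adjusted p = 0.042).

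Across genes with several probe sets, agreement between them varied. Of 25 replication genes with more than 1 tested probe set, 15 had all of them on the same side of 0 and none had calls in opposite directions. In 5 genes (Mcm6, Orc2, Prim1, Rfc1 and Rpa1) every tested probe set was called, in 12 some were, and in 8 none was. Among the clamp loader genes, Rfc5 has 1 tested probe set, and of the other 4 only Rfc1 was also called at its second brightest. There Rfc2 changed by -0.33 (adjusted p = 0.195), Rfc3 by -0.31 (adjusted p = 0.473) and Rfc4 by -0.53 (adjusted p = 0.0661), and the remaining probe set of Rfc2 changed by 0.22. Counted by probe set, 27 of 79 tested were called lower and 5 higher, where 38.7% of all probe sets were called, 20.3% lower and 18.4% higher. When the tested probe sets of each gene were averaged before the fit, a setting chosen after the data were seen, 15 genes were called lower and 2 higher. Cdc7, Rfc2 and Rfc3 lost their calls (adjusted p = 0.269, 0.258 and 0.173). Dbf4 gained a call (adjusted p = 0.0429, against 0.0613 in the main fit). It has 1 tested probe set, so averaging did not change its reading. In that fit the adjustment ran over 12194 genes.

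**Figure D3:**
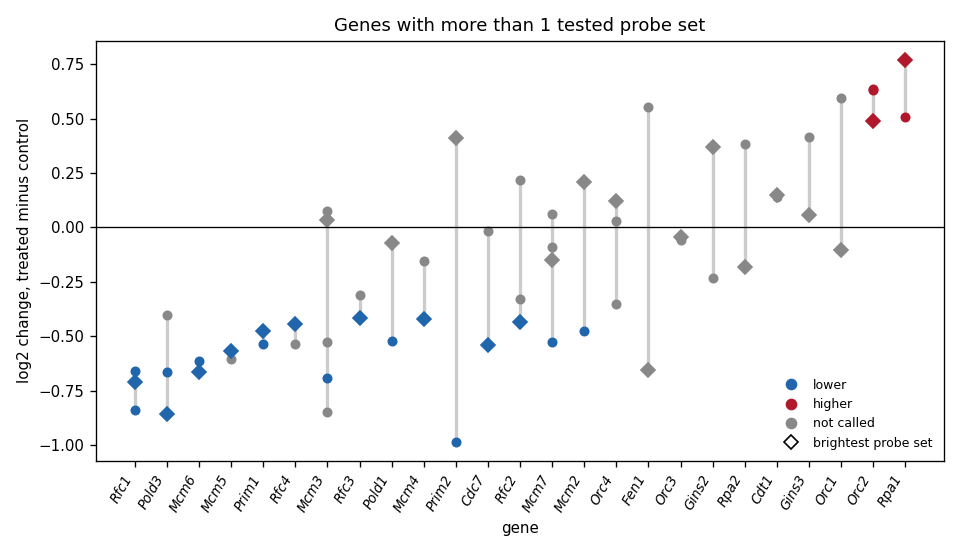
Log2 change (treated minus control, y axis) of every tested probe set of the 25 replication genes that have more than 1, ordered by the mean over probe sets. Diamonds mark the brightest probe set and colours the calls; Prim2 and Fen1 span 0 widely, while all probe sets of Rfc1, Mcm6 and Prim1 lie below 0 and all of Orc2 and Rpa1 above it.

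By array, the groups overlapped in the median of all 44 genes. Set against the mean of the 3 controls, the median of the 44 genes lay at -0.25, -0.19 and -0.10 log2 units on treated arrays 1 to 3, and at 0.12, 0.04 and -0.12 on control arrays 1 to 3. Control array 3 therefore lay among the treated arrays by this median. It held the lowest control reading of 30 of the 44 genes, and control array 1 held the highest of 26. For polymerase genes the arrays were apart, at -0.56, -0.49 and -0.44 on treated arrays against 0.12, 0.00 and -0.10 on control arrays. Clamp loading genes were apart as well, at -0.38, -0.47 and -0.46 on treated arrays against 0.17, 0.02 and -0.18 on control arrays. For licensing (-0.16, 0.12 and 0.07 on treated, 0.05, 0.05 and -0.10 on control arrays) and the helicase (-0.19, -0.09 and 0.00 on treated, 0.14, 0.08 and -0.14 on control arrays) the groups overlapped.

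**Figure D4:**
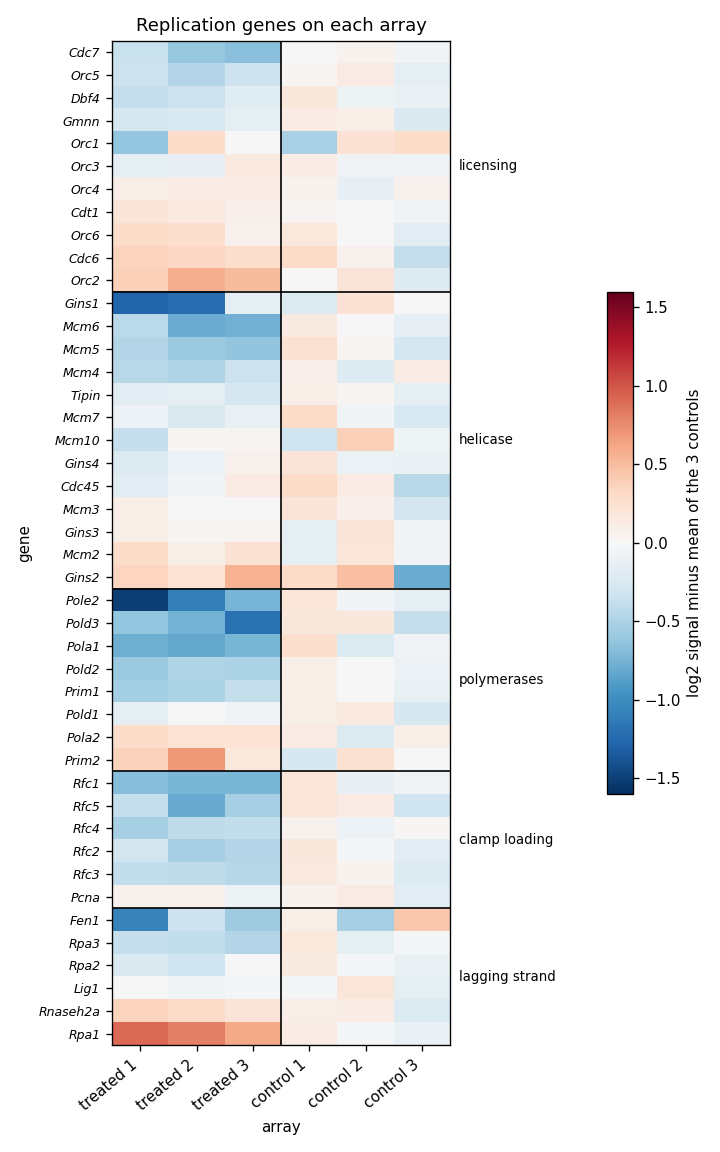
Log2 signal of each tested replication gene (rows, by role) on each array (columns, treated left of control), relative to the mean of the 3 controls, blue for lower and red for higher. Blue runs through all treated arrays in most polymerase and clamp loading rows, while Rpa1 and Orc2 are red there.

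Other replication genes, from a list of 28 that are not members, showed 6 of 24 tested lower and 1 higher (median -0.20). The share lower (25%) was near that of all genes (21.6%), and the share higher was 4.17% against 19.5%. The smallest p belonged to Pclaf, a Pcna-associated factor, at 482 ± 52.4 in treated and 1131 ± 138 in control cultures (-1.21 ± 0.12, adjusted p = 4.32e-05), and Top2a, the topoisomerase that unlinks replicated chromosomes, at 288 ± 34.7 in treated and 557 ± 113 in control cultures (-0.91 ± 0.16, adjusted p = 0.00136). Slbp (-0.40), which binds histone transcripts, and topoisomerase Top1 (-0.35) also fell, and the polymerase Poln rose (0.58). Among the 6 is the helicase Pif1, at 30.9, 5.02 and 12.7 in treated and 68.0, 75.5 and 62.2 in control cultures, which entered the test only through the control arrays, where it is high, so its call is no separate support. Of the histone chaperones and assembly factors of the fork, 3 of 8 were called lower, Rbbp7 (-0.31), Nasp (-0.42) and Asf1a (-0.36), and none higher. That is 37.5% lower, against 21.6% of all genes, with 19.5% of all genes higher.

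Of the genes that govern entry into S phase, 5 of 25 were called lower (20%) and 6 higher (24%), with a median of 0.07; these shares are near those of all genes (21.6% and 19.5%). Cyclin D1 (Ccnd1) was higher at 2905 ± 209 in treated and 977 ± 65.2 in control cultures (1.56 ± 0.087, adjusted p = 1.3e-06). The inhibitor Cdkn1a was also higher (1.02 ± 0.094), while the inhibitor Cdkn1b was lower at 183 ± 8.40 in treated and 591 ± 38.4 in control cultures (-1.64 ± 0.10). Cdk4 fell (-0.66), and the repressors E2f6 (0.86) and Rb1 (0.95) rose. Rbl1 (-0.67, adjusted p = 0.0131) and Rbl2 (-0.71, adjusted p = 0.00191), repressors related to Rb1, fell. The cyclins Ccne1 (0.39, adjusted p = 0.0261) and Ccne2 (0.65, adjusted p = 0.00256) rose, while the cyclin Ccna2 fell (-0.87, adjusted p = 0.00844). Rbl1, Rbl2, Ccne1, Ccne2 and Ccna2 were named after their values were seen. E2f1, an activator of replication genes, changed by 0.00 ± 0.23 (adjusted p = 0.991).

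Mitosis genes, given for comparison, were called lower in 21 of 24 cases with a median of -1.0, against 17 of 44 and -0.17 for the replication genes. That is 87.5% lower and none higher, against 21.6% and 19.5% of all genes. The 21 include Ttk, a mitotic kinase, which entered the test only through the control arrays. Mki67, a proliferation marker, was at 129 ± 18.3 in treated and 437 ± 113 in control cultures (-1.66 ± 0.19), and the cyclin Ccnb2 at 105 ± 5.91 in treated and 391 ± 85.6 in control cultures (-1.79 ± 0.16). Cenpa (-1.35), Nusap1 (-1.38), Birc5 (-0.83) and Cdc20 (-0.76) were the other mitosis genes with the smallest p. Whether the lists differ beyond these counts and medians was not tested, since the genes of a list are not independent replicates.

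**Figure D5:**
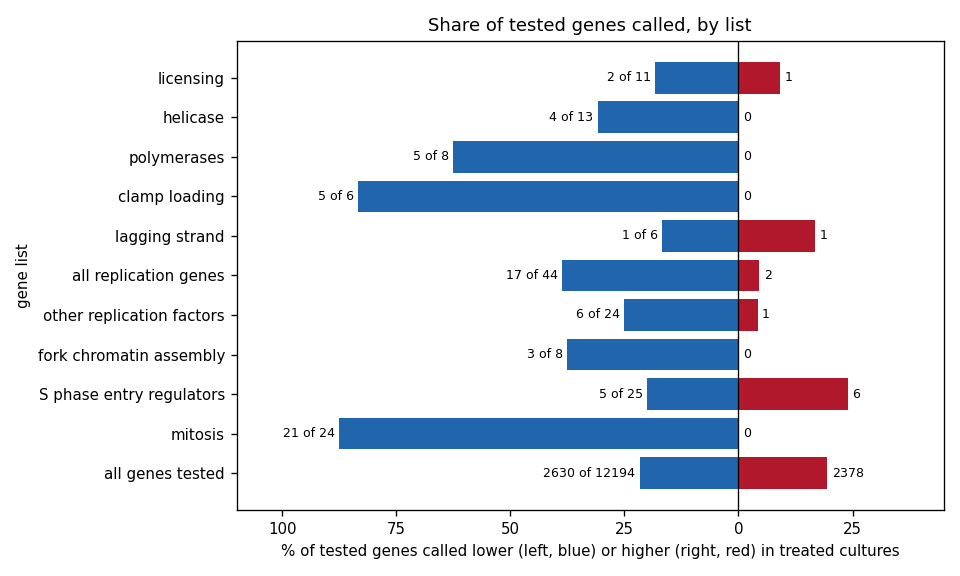
Share of tested genes (%) called lower (bars to the left, blue) or higher (bars to the right, red) in treated cultures for each role, the other lists and all genes, with counts beside the bars. Clamp loading (5 of 6) and polymerases (5 of 8) reach farther left than all genes (2630 of 12194), while licensing (2 of 11) and lagging strand (1 of 6) do not.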

How the data were processed

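The authors deposited MAS5 signal intensities, 1 per probe set and array on a linear scale, per the submitters' processing notes. The sources used here state neither its version nor its target intensity, and detection calls were not used here. RNA was labelled by in vitro transcription, per the labels' protocols. Trimmed means of the deposited intensities were 149 to 224 between arrays, so each array was scaled to the mean of 193 (2% trimmed). Tests used limma 3.58.1 under R 4.3.3, lmFit and eBayes with an intensity trend, on log2(signal + 9.66), group as the sole term, two-sided, over 23388 of 45037 probe sets after 64 manufacturer controls were left out. Groups came from the sample titles. The fit was also run on simulated data with independent noise and changes in a small part of the probe sets. That run did not include the scaling or as many changes as were called here, so it does not check the procedure on data like these. Without detection calls a dim signal is not told from background, and 3 arrays per group limit the precision. The depth of a count does not apply to arrays.

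Of the 45037 probe sets, 34945 named 1 gene, 932 several and 9160 none, by platform annotation that can be old. All 46 members were named whatever their values. From the other lists the genes called, at most 6 per list by smallest p, were named, besides E2f1 and others fixed by name. Rbl1, Rbl2, Ccne1, Ccne2 and Ccna2 were added after their values were seen. Members and lists were chosen with earlier results of these data known. A planned search of protein sequences was not made here. Promoter matches were searched on both strands, counted by start position, in RefSeq windows of GRCm38.p6. Alternatives were 16 other settings.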

Additional observations from a re-analysis of the deposited data

How the results depend on the processing

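Of the 19 calls among replication genes, those of Mcm6, Rfc1 and Rpa1 held in all 16 alternative settings. Those of Pola1 and Pole2 held too, but each has 1 tested probe set, so the settings on the choice and the averaging of probe sets did not change which probe set was read. With the deposited signals left unscaled, 7 of 44 replication genes were called lower and 1 higher, against 17 and 2. Of the 23388 probe sets tested on the whole array, 3042 were then called lower and 1977 higher, against 4743 and 4297. By these counts the share of replication genes called lower lay nearer that of the array than in the main fit. Leaving out 1 array gave 10 to 15 replication genes lower and 1 to 2 higher, with the fewest lower without control replicate 1 and the fewest higher without treated replicate 2, and 3578 to 4193 probe sets lower and 3191 to 3898 higher on the whole array, where fewer arrays entered the fit. Mcm2 changed by -0.47 and Prim2 by -0.98 at their second brightest probe sets, opposite to the brightest. At second brightest probe sets 13 genes were called lower, and Cdc7, Mcm4, Mcm5, Pold3, Rfc2, Rfc3 and Rfc4 lost their calls. Prim2 changed by -0.92, -0.93 and -1.10 without treated replicate 1, 2 or 3, when another probe set, brighter in control cultures, represented it (range over all arrays left out -1.10 to 0.53). With no filter 12 genes were called lower, with more probe sets in the adjustment. With the replicate number as a block, 16 genes were called lower and 3 higher: Cdc7 lost its call (adjusted p = 0.0523) and Prim2 gained one (adjusted p = 0.0364). Same-numbered arrays had correlations of deviations of 0.186, 0.172 and 0.072, each the highest for its array, a hint from the data and not the design. The number of arrays and dim signals limit what can be called. No call depended on either pseudocount.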
